A study of Mus musculus with 18 samples.

Results

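The comparison described here set the second wave of Acly-deleted T-cell leukemia against the first. The product of Acly, ATP-citrate lyase, cleaves citrate in the cytosol into acetyl-CoA and oxaloacetate, and so feeds lipid synthesis and protein acetylation. The leukemia was a mouse T-cell acute lymphoblastic leukemia (T-ALL) that carried a conditional Acly allele, and recipients of the C57BL/6 strain received it intravenously after sub-lethal irradiation. Tamoxifen (3 mg per mouse, in corn oil, into the peritoneum) or corn oil alone followed 48 h after transplant, and spleens filled with leukemia were taken at the humane endpoint. The first wave and the second wave each held 3 libraries from tamoxifen-treated recipients, titled as KO, and 4 libraries titled as WT survival, with the genotype given as control, served as background. Corn oil alone is the control treatment named in the protocol. Both waves thus shared the deleted genotype, the tamoxifen dose and the time of treatment. The labels did not say what sets the waves apart, when each mouse reached its endpoint, which promoter drives the recombinase or how many donor leukemias were used. They also did not say that each library came from its own mouse, so p-values measure only the spread between these libraries. The members were all genes with a mean of at least 10 normalized counts over the 10 survival libraries, which kept 14286 of 18953 genes, and 6 of the 18 libraries of the series entered the contrast.

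T-ALL grows from immature thymocytes and usually depends on NOTCH1 signalling, on MYC and on the D-type cyclins that drive entry into the cell cycle. MHC class I molecules display peptides on the cell surface to CD8 T cells, and NLRC5 is the transactivator that switches on the class I genes and part of the peptide-loading machinery. Interferon-induced proteins such as the guanylate-binding proteins (GBPs) share with the class I genes promoters that read interferon signals. T-cell receptor chains are built by joining a variable (V) segment to downstream segments, so the V segments in use mark the clones that make up a leukemia.

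One second-wave library, replicate 1, stood apart from the other KO libraries on the first 2 principal components, which held 25% and 17.8% of the variance. It had 2898 genes that lay at least 2-fold from the first-wave mean, against 1876 and 1914 in second-wave replicates 2 and 3 and 602 to 746 in the first-wave libraries. Each first-wave library is part of that mean, which lowers its own count, so the first-wave counts are not comparable with the others. WT libraries were at 1429 to 3225 on this measure. WT replicates 1 and 2 also stood apart. Correlations of log2 values within a group ran from 0.945 to 0.954 in the first wave and from 0.904 to 0.934 in the second wave. Normalized counts summed to 9.19 M to 10.39 M per library and steps between low values put the depth near 7.86 M to 12.7 M estimated reads. No library repeated another.

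The deleted gene itself was read first. Acly stood at 725, 656 and 799.6 normalized counts in first-wave replicates 1, 2 and 3 and at 505, 569 and 655 in the second wave. The lowest first-wave and the highest second-wave library nearly touched, and all 6 lay below the WT libraries at 1486 to 1854. The log2 fold change of the second over the first wave was -0.34 (SE 0.18), which did not pass (limma, Benjamini-Hochberg adjusted p = 0.86). An exact two-sided permutation test over the 6 libraries gave p = 0.1, the smallest value that 3 against 3 allows. The first wave kept 42.8% and the second wave 34% of the WT mean. In bulk spleen, fewer cells with an intact allele and less Acly RNA per cell cannot be told apart.

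Across all genes, 17 of 14286 (0.119%) passed an adjusted p of 0.05 in limma on log2(value + 1). In the second wave 2 genes were higher (0.014% of those tested) and 15 were lower (0.105%). Unadjusted p-values under 0.05 were found for 906 genes (6.34%), of which 369 were higher (2.58%) and 537 lower (3.76%). The 3 second-wave libraries did not overlap the 3 first-wave libraries for 1942 genes (13.6%), 900 higher (6.3%) and 1042 lower (7.29%). The median log2 fold change over all genes was -0.01, with 6988 genes positive and 7294 negative. Both genes that rose encode proteins with a known part in T cells or the cell cycle, Ccnd1 and Gpr83. Ccnd1 lies at chr7:144929931-144939925 and Gpr83 at chr9:14860210-14870789 (GRCm38, GENCODE M21). The 15 that fell held genes of antigen presentation and interferon response (Nlrc5, H2-Q7, Gbp2, Trim30d), a pair of beta-tubulins (Tubb2a, Tubb2b), the surface protein gene Cd200, and Syt14, Apol7e, Zfyve28, Gmfg, Hsd17b11, Ccng2 and Sgip1. The remaining gene is not reported here. The count depended on single libraries. Without first-wave replicate 1, 2 or 3 it was 1, 1 and 10, of which 1, 1 and 7 were among the 17. Without second-wave replicate 1, 2 or 3 it was 5, 15 and 39, of which 5, 6 and 12 were among the 17. Without WT replicate 1, 2, 3 or 4 it was 9, 4, 8 and 8, of which 8, 4, 8 and 8 were among the 17. With only the KO libraries fitted 5 genes passed, 3 of them among the 17 (Syt14, Tubb2b and H2-Q7). All 17 genes kept their sign and an unadjusted p under 0.05 in each of these fits. Their waves did not overlap, so leaving out 1 library could not change a sign. They were also picked by their p-values in these same libraries, so neither result adds support.

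**Figure D1:**
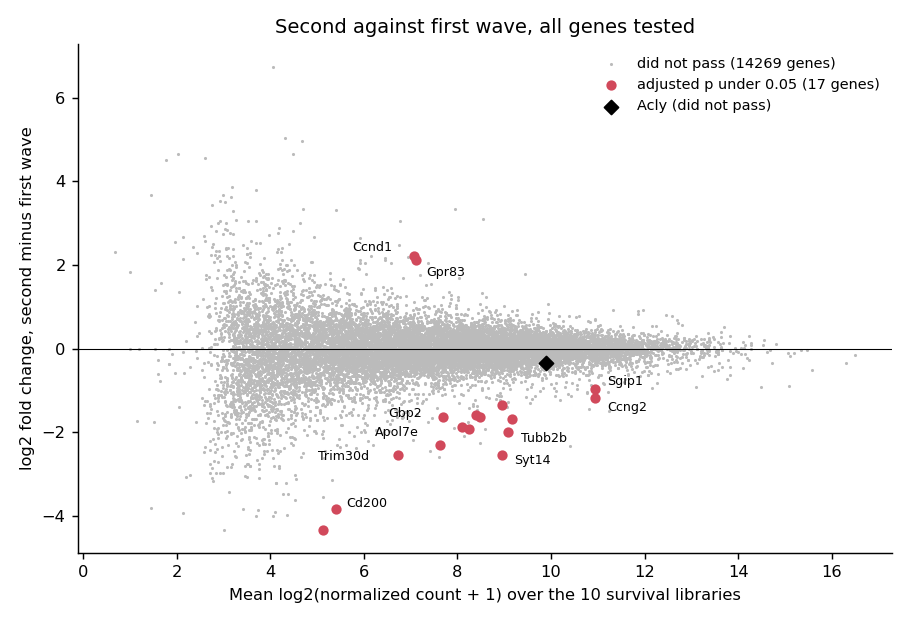
Each point is 1 gene, with its mean log2(normalized count + 1) over the 10 survival libraries on the x axis and its log2 fold change of the second over the first wave on the y axis. The 17 genes past the threshold are red, 2 above and 15 below 0, and Acly is the black diamond at -0.34.

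Ccnd1 encodes cyclin D1, a partner of CDK4 and CDK6 that is scarce in normal T cells, where cyclins D2 and D3 serve instead. Its counts were 80.5, 118 and 138 in the first wave and 722, 573 and 324 in the second, with WT libraries at 33.8 to 78.8. Every second-wave library lay above every first-wave and WT library. The mean was 4.8-fold higher, at 539 ± 201 (SD, n = 3) against 112 ± 29.4 (SD, n = 3), with a log2 fold change of 2.21 (SE 0.39, limma adjusted p = 0.0444). The call was lost in 8 of the 10 fits that left out 1 library and with only the KO libraries fitted. The other D-type cyclins did not pass. Ccnd3, the main D-type cyclin of thymocytes and T-ALL, was at 1331, 1448 and 1205 in the first and 604, 769 and 869 in the second wave (log2 -0.84, SE 0.24, limma adjusted p = 0.400), with no overlap. Ccnd2 had a log2 fold change of 0.61 (SE 0.67) with overlapping libraries.

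The list of G1 cyclins and their inhibitors held 18 tested genes, of which Ccnd1 alone passed, higher, and none passed lower. Their median log2 fold change was 0.26, beside -0.01 over all genes. At an unadjusted p under 0.05, 3 members were higher (Ccnd1, Cdk4 and Cdkn1a) and 3 lower (Ccnd3, Cdkn1b and Cdkn2d), beside 2.58% higher and 3.76% lower over all genes. Cdkn1b encodes the CDK inhibitor p27 and stood at 3465, 3409.5 and 4114 in the first wave and 2646, 1903 and 2196 in the second (log2 -0.71, limma adjusted p = 0.238). Its second-wave libraries all lay below the first-wave ones. Ccng2, cyclin G2, is a cyclin linked to growth arrest and passed the test in the lower direction. It was at 2233, 2433 and 2606 in the first wave and at 1307, 1001 and 923 in the second, with WT at 2103 to 3307. The second-wave mean was 44.4% of the first-wave mean (log2 -1.18, SE 0.21, limma adjusted p = 0.0444), and no fit that left out 1 library kept the call. Its relative Ccng1 had a log2 fold change of 0.22 with overlapping libraries.

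Gpr83 encodes a G protein-coupled receptor known from regulatory T cells and brain. It read 97.8, 101 and 88.6 in the first wave, 475, 684 and 232 in the second and 60.2 to 86 in WT. The first-wave libraries lay close together, and all second-wave libraries were above them. The mean rose 4.85-fold (log2 2.13, SE 0.36, limma adjusted p = 0.0439), and 1 of the 10 fits without 1 library kept the call. Another receptor gene, Adgrg5, an adhesion G protein-coupled receptor, came next and missed the threshold. It was at 19.5, 39.7 and 58.4 in the first wave, 221, 184 and 227 in the second and 21.2 to 43.6 in WT (log2 2.52, SE 0.46, limma adjusted p = 0.0547).

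A further 12 genes higher in the second wave were named by the smallest unadjusted p among those with non-overlapping libraries, and none passed. With Adgrg5, these 13 had log2 fold changes of 0.84 to 3.31 and limma adjusted p-values of 0.0547 to 0.313. The largest were Col1a2, a type I collagen chain, and Cd93, a surface glycoprotein of immature B cells, myeloid cells and endothelium. Col1a2 was at 25, 11.1 and 28.8 in the first and 416, 71.1 and 303 in the second wave (log2 3.31, limma adjusted p = 0.122). Its partner chain Col1a1 lay in the other direction, at 9.53, 7.2 and 13.7 in the first wave and 4.09, 4.07 and 3.54 in the second, so the 2 chains of type I collagen lay on opposite sides. Cd93 was at 19.6, 35.2 and 119 in the first and 649, 222 and 349.6 in the second wave (log2 3.05, limma adjusted p = 0.0735). Of the rest, Lzts1 (log2 2.13), Dennd3 (2.17), Fbxw8 (1.53), Dock5 (1.35), Coro2a (1.06) and Bbs9 (1.04) had log2 fold changes above 1. Rapgef2 (0.92), Zfp704 (0.90), Tmbim1 (0.87) and Nrip1 (0.84) had log2 fold changes below 1. Nrip1, a nuclear receptor corepressor induced by oestrogen, also belonged to the list of oestrogen response genes, which was read because tamoxifen binds the oestrogen receptor. In that list 1 of 12 tested genes passed, Ccnd1, with a median log2 fold change of 0.13, and 2 had an unadjusted p under 0.05, both higher, beside 2.58% of all genes.

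**Figure D2:**
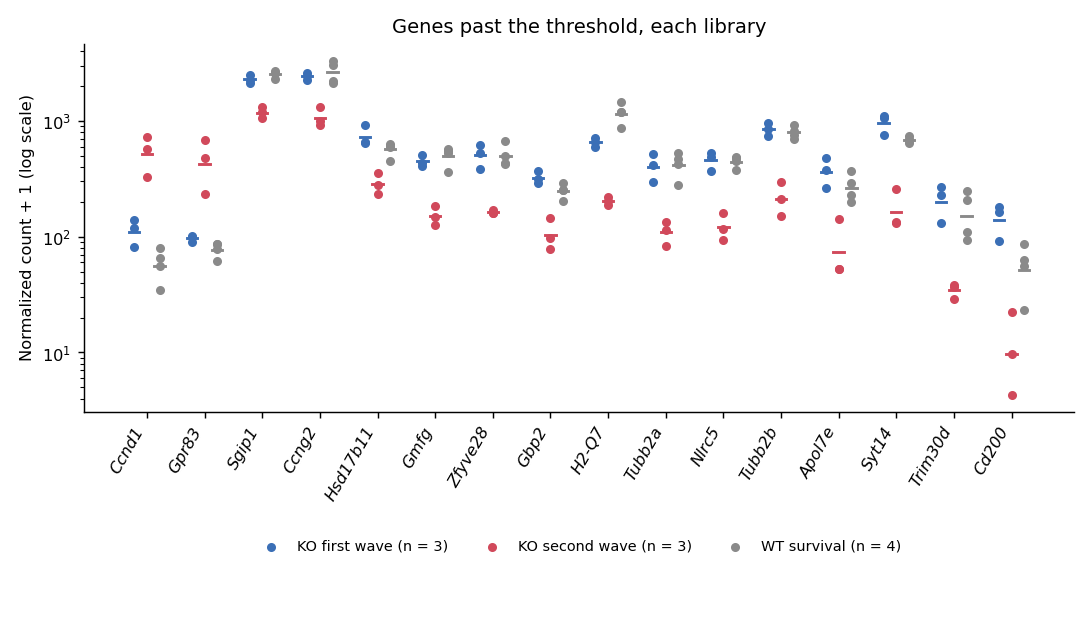
Each point is the normalized count + 1 of 1 library on a log axis, for the 16 of 17 genes past the threshold with a mean of at least 100 in a wave, in order of their fold change, and each bar is the mean of the log values in a group. Ccnd1 and Gpr83 are higher in the second wave (red) than in the first wave (blue), the other 14 are lower, and WT libraries (grey) are drawn beside them.

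Of the 4 genes with the smallest p-values, 2 belong to the MHC class I list, Nlrc5 and H2-Q7. Nlrc5 stood at 531, 483 and 368 in the first wave and 117, 92.6 and 158 in the second, with WT at 376 to 485. The highest second-wave library was below the lowest first-wave and WT libraries. Its mean fell to 26.6% of the first-wave mean (log2 -1.92, SE 0.26, limma adjusted p = 0.00912). H2-Q7, which encodes the class Ib molecule Qa-2, was at 596, 653 and 712 in the first wave and 220.5, 188 and 204 in the second. The WT libraries, at 867 to 1445, lay above both waves. The second-wave mean was 31.2% of the first-wave mean (log2 -1.67, SE 0.21, limma adjusted p = 0.00765). Nlrc5 lies at chr8:94434356-94527272 and H2-Q7 at chr17:35439155-35443773, and both are protein-coding. Both calls were kept in 8 of the 10 fits that left out 1 library and were lost without first-wave replicate 1 or 2. With only the KO libraries fitted H2-Q7 passed and Nlrc5 did not.

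The other class I genes did not pass. Of 16 tested members of the MHC class I list, 2 passed and both were lower, and 7 had an unadjusted p under 0.05, all lower, beside 3.76% of all genes. The median log2 fold change was -0.37 and 13 of the 16 were negative. B2m, the light chain shared by all class I molecules, was at 18246, 16783 and 18865 in the first wave and 11814, 12708 and 10309.7 in the second (log2 -0.63, SE 0.15, limma adjusted p = 0.225). The 3 second-wave libraries lay below the first-wave ones, and WT spanned 12529 to 17835. The classical heavy chains gave log2 fold changes of -0.78 for H2-K1 and -0.62 for H2-D1, with limma adjusted p-values of 0.562 and 0.651. H2-K1 was at 866, 729 and 571 in the first wave and 293, 418 and 579 in the second, where replicate 3 reached the first-wave range. H2-D1 was at 813, 556 and 692 in the first wave and 347, 474 and 526 in the second, without overlap. Tapbp, the tapasin chaperone of peptide loading, had a log2 fold change of -0.53. H2-Q6, a close copy of H2-Q7 beside it on chromosome 17, was listed at 39.2, 16.7 and 25.6 in the first wave and 0, 0 and 3.64 in the second. Reads of the H2-Q genes can be split between copies, so the values of H2-Q6 and H2-Q7 are uncertain, and over all 7 H2-Q genes 5 had a negative and 2 a positive log2 fold change. The peptide transporter gene Tap2 and the immunoproteasome genes Psmb9 and Psmb10 had positive values, from 0.40 to 0.60, with overlapping libraries. Summed over the list, class I genes took 0.256 to 0.281% of counts in the first wave, 0.179 to 0.202% in the second and 0.237 to 0.278% in WT. B2m, which did not pass, held most of this sum in each KO library, so the sum is largely a reading of that gene.

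Among interferon-induced genes, Gbp2, a guanylate-binding GTPase that attacks intracellular pathogens, passed. It was at 288, 366 and 313 in the first wave, 145, 95.7 and 76.8 in the second and 201 to 292 in WT, and the second wave lay below all other libraries. The mean fell to 32.9% of the first-wave mean (log2 -1.64, SE 0.28, limma adjusted p = 0.0444). All 10 tested Gbp genes had a negative log2 fold change, from -3.46 to -0.15 with a median of -0.69, and 5 of them did not overlap between waves, all lower, beside 7.29% of all genes. The call of Gbp2 was kept in 1 of the 10 fits that left out 1 library. This family was read after the value of Gbp2 was seen, and its copies share reads. Gbp6 was at 247, 289 and 233 in the first wave and 56, 199 and 76.4 in the second, and Gbp5 at 208, 217 and 231 in the first wave and 155, 135 and 132 in the second. Gbp4, an abundant member, overlapped between waves at 964 to 1234 and 527 to 1091.

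Trim30d, of the Trim30 family of tripartite-motif proteins that interferon induces, was at 227, 266 and 131 in the first wave and 37.3, 36.1 and 27.9 in the second. WT libraries were at 92.6 to 247, above the second wave. Its mean was 16.2% of the first-wave mean (log2 -2.54, SE 0.42, limma adjusted p = 0.0407). Its neighbour on chromosome 7, Trim30a, a brake on Toll-like receptor signalling, was at 1283, 950.4 and 1158 in the first wave and 493, 369 and 525 in the second and missed the threshold (log2 -1.29, limma adjusted p = 0.0748). The 2 genes are close copies that can share reads. Apol7e, an apolipoprotein L gene, was at 377, 481 and 263 in the first wave, 51.9, 142 and 51.3 in the second and 198 to 367 in WT (log2 -2.31, SE 0.39, limma adjusted p = 0.0439). Its second-wave libraries lay below all others, while its relative Apol7c overlapped at 31.1 to 52.7 and 20.4 to 158. Of the 10 fits that left out 1 library, 3 kept the call of Trim30d and 1 that of Apol7e.

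In the list of 26 tested interferon response genes, Gbp2 alone passed. The median log2 fold change was -0.38, 21 members were negative, and 4 had an unadjusted p under 0.05, all lower (Gbp2, Igtp and Ifih1 among them), beside 3.76% of all genes. Ifngr1, the ligand-binding chain of the interferon gamma receptor, had a log2 fold change of -0.94 (SE 0.27, limma adjusted p = 0.409), with second-wave replicate 2 inside the first-wave range. Genes at the positive end included Mx2, Oas2 and Mx1, whose libraries overlapped. Summed over the list, interferon response genes took 0.0577 to 0.0693% of counts in the first wave and 0.0423 to 0.058% in the second, ranges that overlapped. WT libraries were at 0.0518 to 0.088%, so they reached into the second-wave range.

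**Figure D3:**
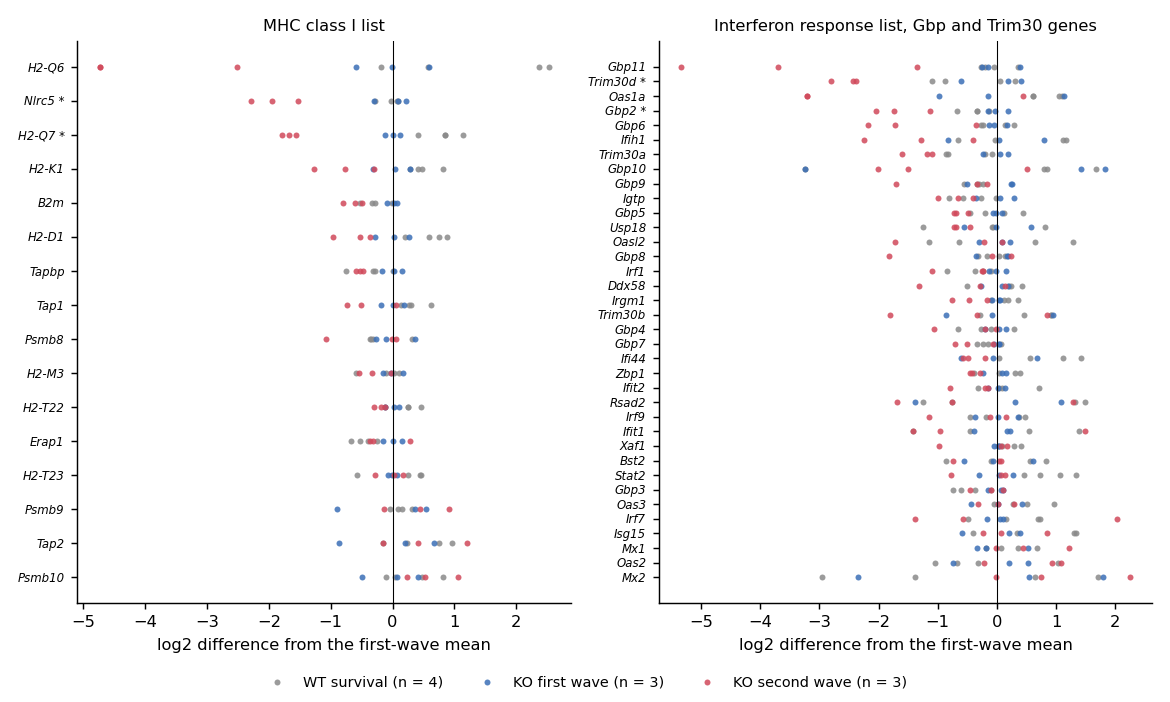
Each point is 1 library's log2(normalized count + 1) minus the first-wave mean of that gene, for the MHC class I list (left) and the interferon response list with the Gbp and Trim30 genes (right), of which not every member is drawn. Stars mark genes past the threshold, and the second-wave points (red) of Nlrc5, H2-Q7, Gbp2 and Trim30d lie left of every first-wave (blue) and WT (grey) point.

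The promoters of the genes past the threshold were searched for the interferon-stimulated response element, written GAAANNGAAA on either strand, in the 250 bases before the RefSeq start (GRCm38.p6). Of the 17 genes, 13 had a promoter in the table and 3 of these held the motif (23.1%), against 360 of 10408 tested genes with a promoter (3.46%) and 2.98% of all 32851 promoters. The 3 were Apol7e, Gbp2 and Trim30d, all lower in the second wave, and their upstream sequences are printed for that reason, 5′ to 3′ on the gene's strand, with the motif in capitals as its reverse complement.
Apol7e, chr15:77698639-77698888, plus strand: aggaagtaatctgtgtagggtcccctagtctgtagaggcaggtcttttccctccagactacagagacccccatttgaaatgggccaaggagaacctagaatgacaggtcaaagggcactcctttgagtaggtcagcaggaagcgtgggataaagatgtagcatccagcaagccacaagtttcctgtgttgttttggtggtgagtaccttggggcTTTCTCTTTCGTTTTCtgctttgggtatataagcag
Gbp2, chr3:142620413-142620662, plus strand: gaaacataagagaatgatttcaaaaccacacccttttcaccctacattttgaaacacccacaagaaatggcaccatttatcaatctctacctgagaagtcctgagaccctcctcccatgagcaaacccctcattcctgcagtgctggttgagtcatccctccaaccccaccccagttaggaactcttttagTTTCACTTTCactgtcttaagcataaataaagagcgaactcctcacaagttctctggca
Trim30d, chr7:104507850-104508099, minus strand: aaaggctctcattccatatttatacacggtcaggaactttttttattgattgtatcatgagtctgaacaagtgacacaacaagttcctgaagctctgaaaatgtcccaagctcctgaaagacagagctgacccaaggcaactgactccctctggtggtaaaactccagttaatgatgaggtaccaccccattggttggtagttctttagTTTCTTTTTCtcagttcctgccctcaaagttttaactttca
The Gbp2 match spans bases 59 to 50 before the start and the Trim30d match bases 41 to 32. Apol7e holds 2 matches that overlap, at bases 36 to 27 and 30 to 21. In the class I list the motif stood in 3 of 14 promoters (B2m, H2-T22 and H2-T23; 21.4%), and in the interferon response list in 11 of 20 (55%). The gamma-activated site motif TTCNNNGAA, searched the same way, was in 0 of the 13 promoters and in 7.47% of tested genes with one. It stood in 2 of 14 promoters of the class I list (H2-M3 and Psmb8; 14.3%) and in 5 of 20 of the interferon response list (25%). Nlrc5, Tubb2b and Ccnd1 had no listed promoter and were not searched. A match is a run of letters in this window and no measure of binding.

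The 2 beta-tubulin genes that passed sit close together on chromosome 13, Tubb2a at chr13:34074274-34078007 and Tubb2b at chr13:34126748-34130466 (GRCm38, GENCODE M21). Tubulins polymerise as alpha and beta pairs into microtubules. Tubb2b was at 953, 848 and 744 in the first wave and 209.6, 149.8 and 296 in the second (log2 -2.0, SE 0.25, limma adjusted p = 0.00735). Tubb2a was at 516, 418 and 293 in the first wave and 114, 82.7 and 134 in the second (log2 -1.88, SE 0.30, limma adjusted p = 0.0407). For both, all second-wave libraries were below the first-wave and WT libraries, the latter at 694 to 923 for Tubb2b and 277 to 530.2 for Tubb2a. Their sequences are near-identical, so the split of reads between them is uncertain. Leaving out 1 library kept the call of Tubb2b in 8 of 10 fits and that of Tubb2a in 3. The other tested beta-tubulins did not pass. Tubb5 overlapped between waves at 13986 to 20800.3 and 14662 to 21051, and Tubb4b had a log2 fold change of 0.42 (SE 0.22). None of 5 tested alpha-tubulins passed or was free of overlap, with log2 fold changes of -1.10 to 0.37.

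Syt14, a synaptotagmin of membrane traffic that lacks calcium binding, had the smallest p-value. It lies at chr1:192891233-193035775. It was at 1091, 1058 and 750.2 in the first wave, 129, 255 and 133 in the second and 646 to 739.6 in WT. Every second-wave library was below every other library. The mean fell to 17.8% of the first-wave mean (log2 -2.54, SE 0.26, limma adjusted p = 0.00199), and Syt14 passed in all 10 fits that left out 1 library. No other gene past the threshold did.

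Cd200 encodes a membrane glycoprotein whose receptor on myeloid cells delivers an inhibitory signal. It was at 164, 91.1 and 179 in the first wave and at 3.28, 8.74 and 21.5 in the second, and the WT libraries lay between the waves, at 22.1 to 86.3. Second-wave replicate 3 came close to the lowest WT library. The second-wave mean was 7.73% of the first-wave mean (log2 -3.84, SE 0.64, limma adjusted p = 0.0407), a call kept in 2 of the 10 fits without 1 library. The receptor gene Cd200r1 was at 10.1 to 27.5 in the first wave and 8.1 to 34.5 in the second and overlapped.

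The remaining genes that fell have varied roles. Zfyve28, a FYVE-domain protein of endosomes, was at 623, 532 and 386 in the first wave and 159, 168 and 158 in the second, where the 3 libraries lay within a narrow band. Gmfg, a regulator of branched actin in blood cells, was at 508, 411 and 434 in the first wave and 148, 125 and 183 in the second. Both had similar fold changes, with log2 values of -1.64 (limma adjusted p = 0.0326) and -1.57 (limma adjusted p = 0.0378). Hsd17b11, a short-chain dehydrogenase of lipid droplets, was at 923, 652 and 637 in the first wave and 357, 277 and 234 in the second (log2 -1.35, limma adjusted p = 0.0444). Sgip1, an adaptor of clathrin-mediated endocytosis, was at 2267, 2501 and 2105 in the first wave and 1183, 1054 and 1308 in the second (log2 -0.96, limma adjusted p = 0.0407). It had the smallest fold change of the genes past the threshold, with waves that did not overlap. In WT these genes were at 426 to 666 for Zfyve28, 363 to 575 for Gmfg, 453 to 634 for Hsd17b11 and 2307 to 2669 for Sgip1, above the second wave in each case. When 1 library was left out, the call was kept in 5 of 10 fits for Zfyve28, 4 for Gmfg, 2 for Sgip1 and 0 for Hsd17b11.

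The 39 gene lists gave 4 with a gene past the threshold (MHC class I, interferon response, G1 cyclins and oestrogen response) and 35 with none. Medians over the lists ran from -0.69 (B cell) to 0.53 (platelet and megakaryocyte). In the 35 lists, counting a gene once for each list that holds it, unadjusted p-values under 0.05 numbered 25 higher (3.81%) and 31 lower (4.72%) among 657 tested, beside 2.58% and 3.76% of all genes.

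**Figure D4:**
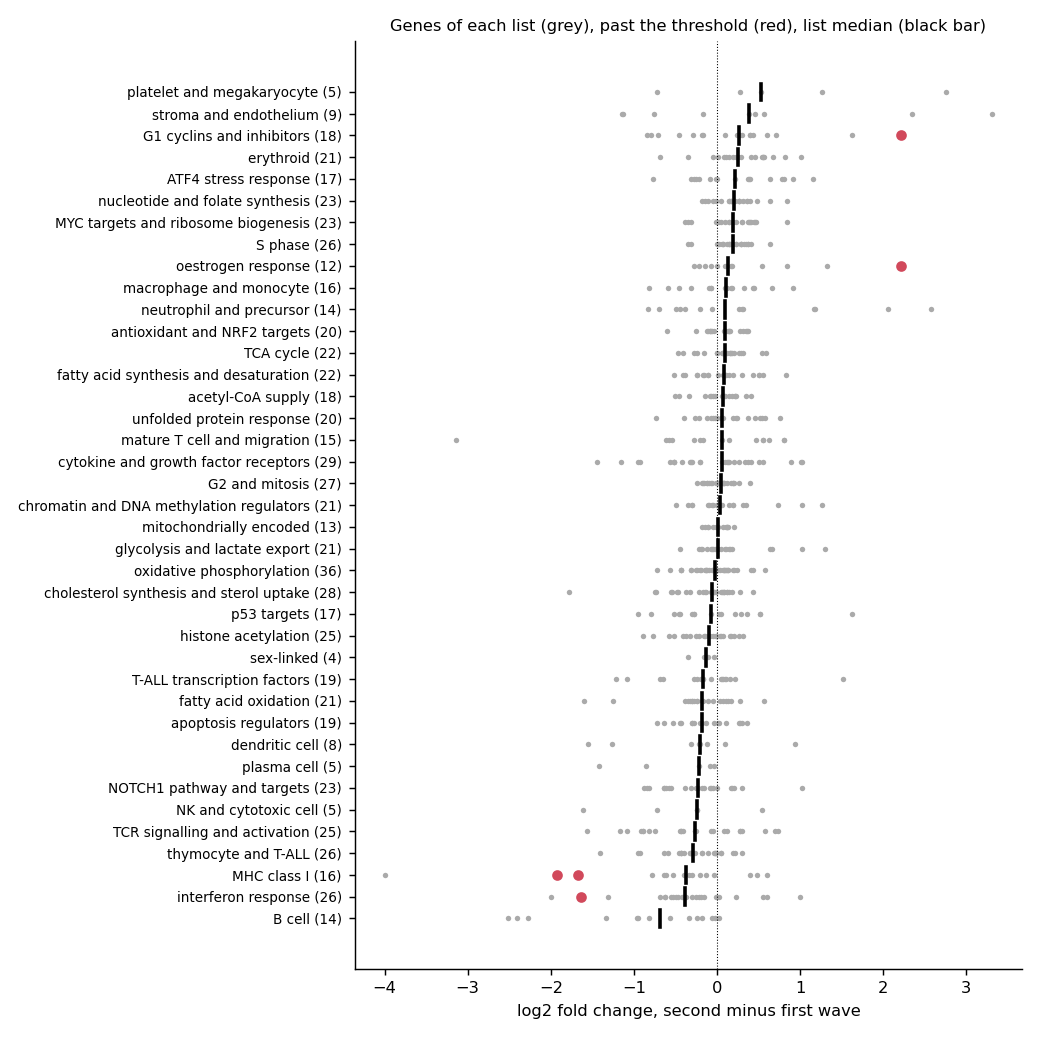
Each row is 1 gene list with the number of genes tested, each grey point the log2 fold change of 1 member, red points the members past the threshold and the black bar the list median. The MHC class I and interferon response lists have medians of -0.37 and -0.38, and the lists of lipid and energy metabolism lie near 0.

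The identity of the leukemia was read from thymocyte and T-ALL genes. All 26 were tested, none passed, 6 had an unadjusted p under 0.05, all lower, beside 3.76% of all genes, and 21 were negative with a median of -0.29. Dntt, the terminal transferase of V(D)J joining, was at 6382, 5571 and 6290.4 in the first wave and 3059, 3314 and 3093 in the second (log2 -0.94, SE 0.22, limma adjusted p = 0.185), without overlap. Rag1, the recombinase of the same reaction, was at 42389, 37269.7 and 29233 in the first wave and 16988, 23993 and 16612 in the second (log2 -0.92, limma adjusted p = 0.647). The WT libraries spanned 10604 to 31477 for Rag1, so both waves lay within or above the WT range. Tcf12, an E protein, Cd8a, the co-receptor chain, and Ets1 had log2 fold changes of -0.43, -0.58 and -0.43. Summed over the list, these genes took 1.63 to 1.89% of counts in the first wave, 1.35 to 1.45% in the second and 1.06 to 1.72% in WT.

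In the NOTCH1 list 0 of 23 tested genes passed, 3 had an unadjusted p under 0.05, all lower, beside 3.76% of all genes, and the median was -0.23. The receptor gene Notch1 overlapped at 17108 to 25906 in the first and 14751 to 19584 in the second wave. Its target Hes1, a transcriptional repressor, was at 610.1, 567 and 659 in the first wave and 326, 359 and 357 in the second (log2 -0.81, limma adjusted p = 0.471). In the list of T-cell receptor signalling and activation 0 of 25 passed, 1 was higher and 4 lower at an unadjusted p under 0.05, beside 2.58% and 3.76% of all genes, and the median was -0.26. Nr4a1, an early gene of receptor signalling, was at 336, 233 and 233 in the first wave and 55, 66.1 and 186 in the second (log2 -1.57, SE 0.42, limma adjusted p = 0.371). Tnfaip3, the NF-kappaB inhibitor A20, was at 1243, 1427 and 1267 in the first wave and 641, 579 and 644 in the second, with WT at 1121 to 5768 (log2 -1.08, limma adjusted p = 0.754).

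The T-cell receptor beta V segments were read as shares. These are percent of the normalized counts on the 19 Trbv segments of the table, not corrected for length, so each segment is compared across libraries only. The ends of the 5 segments that took over 5% in any KO library are printed to show how far they differ, as the last 60 bases of the longest annotated transcript, 5′ to 3′, with the codon of the conserved cysteine that opens the third hypervariable loop in capitals.
Trbv26, chr6:41227505-41227993: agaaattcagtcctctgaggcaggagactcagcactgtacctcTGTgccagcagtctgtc
Trbv2, chr6:41047340-41047995: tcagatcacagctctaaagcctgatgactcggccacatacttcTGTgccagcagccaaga
Trbv1, chr6:40891229-40891885: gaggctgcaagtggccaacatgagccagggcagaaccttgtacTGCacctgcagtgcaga
Trbv17, chr6:41163062-41163556: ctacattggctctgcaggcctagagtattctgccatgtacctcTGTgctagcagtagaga
Trbv19, chr6:41178375-41179048: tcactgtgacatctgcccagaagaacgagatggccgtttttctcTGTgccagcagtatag
All lie on the plus strand (GRCm38, GENCODE M21). Over their last 280 bases any 2 of them were 52.2 to 61.9% identical in aligned columns.

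Trbv26 took 74.4, 65.4 and 65.8% in the first wave and 26.7, 53.4 and 1.31% in the second. The first-wave libraries were alike, whereas second-wave replicate 3 had almost none. Trbv1 took 9.14, 16.4 and 18.9% in the first wave and 34.1, 27 and 95% in the second, so that replicate 3 was nearly all Trbv1. Every second-wave library was lower for Trbv26 and higher for Trbv1 than every first-wave library. Trbv2 took 12.8, 12.8 and 11.7% in the first and 6.82, 6.63 and 0.398% in the second wave. Trbv17 took 27.7% in second-wave replicate 1 and at most 0.351% in any other library. Trbv19 took 11.5% in second-wave replicate 2 and at most 1.92% elsewhere. Each second-wave library thus had its own mixture, while the first-wave libraries shared one. In WT, Trbv26 took 21.8 to 74%, and WT replicate 3, the lowest, carried 55.8% Trbv5. The Trbv counts summed to 3504 to 4090 in the first wave and 3399 to 5202 in the second. As single genes, 0 of 9 tested Trbv segments and 0 of 41 tested receptor segments passed.

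Receptor constant genes were read beside the segments. Trdc, the delta-chain constant gene, was at 291, 245 and 256 in the first wave and 147, 109.9 and 6.07 in the second, lowest in the library with almost only Trbv1 (log2 -2.44, limma adjusted p = 0.584). Trbc1 was at 6262, 5975 and 5795 in the first wave and 4192, 4679 and 3154 in the second, without overlap (log2 -0.60, limma adjusted p = 0.438). Trbc2 had a log2 fold change of 0.11 with overlapping libraries. Whether segment use has a part in the other differences was not tested.

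**Figure D5:**
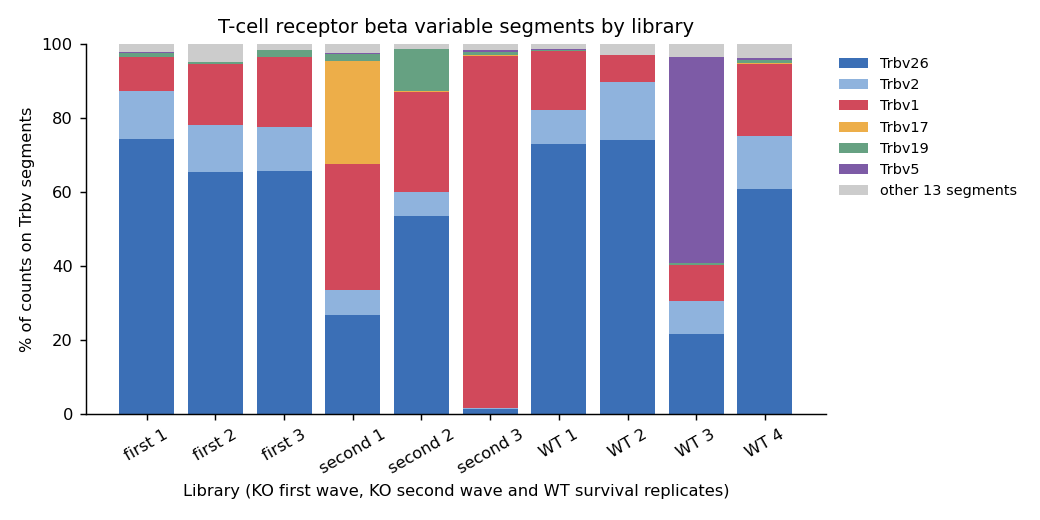
Bars show, for each survival library, the percent of normalized counts on Trbv segments taken by each segment, and each bar sums to 100. The 3 first-wave bars look alike with 65.4 to 74.4% Trbv26, and the 3 second-wave bars differ from each other, with 95% Trbv1 in replicate 3 and 27.7% Trbv17 in replicate 1.

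The lists closest to the enzyme that was deleted showed no gene past the threshold. The acetyl-CoA supply list (18 tested, median 0.07) had 0 members at an unadjusted p under 0.05, and Acss2, which makes acetyl-CoA from acetate, was at 320.1, 280.1 and 343 in the first wave and 187, 228 and 254 in the second (log2 -0.50, SE 0.23, limma adjusted p = 0.787). In fatty acid synthesis (22 tested, median 0.09) 1 member was higher and 1 lower at an unadjusted p under 0.05, beside 2.58% and 3.76% of all genes. Acaca, the acetyl-CoA carboxylase, was at 1946, 2359 and 1940.4 in the first wave and 1173, 1482 and 1739 in the second (log2 -0.52, limma adjusted p = 0.68), with no overlap. In cholesterol synthesis and sterol uptake (28 tested, median -0.06) 1 member was lower, Insig1, a sterol-sensing brake on the pathway. Insig1 was at 785, 691 and 590.0 in the first wave and 409, 429 and 399.7 in the second (log2 -0.73, limma adjusted p = 0.642). Histone acetylation genes (25 tested, median -0.09) had 0 members at an unadjusted p under 0.05.

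Energy and growth lists also held no gene past the threshold. Medians were 0.01 for glycolysis (21 tested), 0.09 for the TCA cycle (22), -0.03 for oxidative phosphorylation (36), -0.17 for fatty acid oxidation (21) and 0.01 for the 13 mitochondrially encoded genes. Nucleotide and folate synthesis (23 tested) had a median of 0.21, with 18 members positive, beside 6988 of 14286 over all genes. Its summed share overlapped between waves, at 0.319 to 0.397% and 0.381 to 0.42% of counts. Cad, which starts pyrimidine synthesis, was at 694, 812 and 855 in the first wave and 1640.0, 1108 and 1538 in the second (log2 0.84, SE 0.24, limma adjusted p = 0.409). MYC targets (median 0.19) had 8 of 23 members whose second-wave libraries all lay above the first-wave ones, against 6.3% of all genes. A further 2 had all second-wave libraries below, against 7.29% of all genes. At an unadjusted p under 0.05, 3 were higher and 1 lower, beside 2.58% and 3.76% of all genes. Cad belongs to this list too. The summed share of the MYC list overlapped narrowly between waves, at 0.401 to 0.4535% and 0.453 to 0.4826% of counts. S-phase genes (26 tested, median 0.19) were positive in 24 members, beside 6988 of 14286 over all genes, and 1 member was higher at an unadjusted p under 0.05. Their summed share overlapped between waves, at 0.3 to 0.415% of counts in the first, 0.382 to 0.416% in the second and 0.352 to 0.431% in WT. G2 and mitosis genes (27 tested) had a median of 0.05. Gnl3, a nucleolar GTPase of that MYC list, was at 1209.7, 1174 and 1316 in the first wave and 1590.2, 1699 and 1625 in the second (limma adjusted p = 0.649). Among stress genes, Aldh18a1, an enzyme of proline synthesis in the ATF4 list, was at 152, 189.6 and 370.0 in the first wave and 499, 538 and 448 in the second (log2 1.16, limma adjusted p = 0.501). Medians of the stress and death lists were 0.22 for the ATF4 response (17 tested), 0.06 for the unfolded protein response (20), -0.07 for p53 targets (17), -0.18 for apoptosis regulators (19) and 0.10 for antioxidant genes (20). In the unfolded protein response list members lay on both sides. Edem1, which marks misfolded glycoproteins for disposal, was at 17075, 19664 and 17926 in the first wave and 9968, 13401 and 9865 in the second (log2 -0.73, limma adjusted p = 0.388), and the sensor gene Atf6 at 269, 399.7 and 334 in the first wave and 698, 453 and 549 in the second (log2 0.76, limma adjusted p = 0.605).

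Chromatin regulators (21 tested, median 0.03) had 0 members past the threshold, with 3 higher and 0 lower at an unadjusted p under 0.05, beside 2.58% and 3.76% of all genes. Dnmt3b, a de novo DNA methyltransferase, was at 63, 85.2 and 77.9 in the first wave and 205, 199 and 146 in the second (log2 1.27, SE 0.35, limma adjusted p = 0.381). Tet1, which oxidises methylated cytosine, was at 652, 365 and 312 in the first wave and 951, 879 and 744 in the second (log2 1.02, SE 0.28, limma adjusted p = 0.381). For both genes the waves did not overlap, and WT replicate 3 had a Dnmt3b count inside the second-wave range. T-ALL transcription factors (19 tested) had a median of -0.17 and cytokine and growth factor receptors (29 tested) one of 0.06.

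Markers of other spleen cells were read beside these values. B cell markers (14 tested) had the lowest median of all lists, -0.69, with 0 past the threshold and 3 lower at an unadjusted p under 0.05 (Ms4a1, Pax5 and Cd22), beside 3.76% of all genes. Their summed share was 0.0111 to 0.0118% of counts in the first wave, 0.00811 to 0.00965% in the second and 0.0132 to 0.0167% in WT. Ms4a1, the B cell antigen CD20, was at 95.9, 118 and 92.6 in the first wave and 67.5, 37.8 and 24.3 in the second. The plasma cell gene Jchain was at 413, 343 and 447 in the first wave and 246, 174 and 76.1 in the second (log2 -1.42, limma adjusted p = 0.314). Its list (5 tested, median -0.22) had no member past the threshold. The summed share of plasma cell markers overlapped between waves, at 0.02519 to 0.03225% and 0.02113 to 0.03434% of counts. B cells express class I molecules and GBPs too, and the part of these cells in the lower MHC class I and interferon values was not tested. NK and cytotoxic cell markers (5 of 14 tested, median -0.24) took 0.00855 to 0.00977% of counts in the first wave, 0.00489 to 0.00701% in the second, without overlap, and 0.00851 to 0.0109% in WT. None passed. Gzma, the granule protease granzyme A, held most of the NK and cytotoxic sum in each KO library and was the 1 tested member without overlap. It was at 703, 603 and 747 in the first wave and 529, 319 and 415 in the second (log2 -0.72, SE 0.23, limma adjusted p = 0.495). The non-overlap of this sum thus rests largely on a single gene. Neutrophil and precursor markers (14 of 21 tested, median 0.10) took 0.00558 to 0.00732% in the first wave, 0.0074 to 0.012% in the second, also without overlap, and 0.00462 to 0.0265% in WT, and none passed. Of these markers 7 were positive and 7 negative, and 2 were higher without overlap. Chil3 was 1 of these 2, at 74.2, 62.1 and 88.3 in the first wave and 312, 561 and 173 in the second (log2 2.06, limma adjusted p = 0.625). The summed share was not read without Chil3. In neither list was a measured member at 0 in all KO libraries, and the part of these cells in the other differences was not tested. Macrophage and monocyte markers (16 tested, median 0.11) took 0.0235 to 0.0258% of counts in the first wave and 0.018 to 0.0474% in the second. Erythroid markers took 0.125 to 0.296% and 0.135 to 0.575%, highest in second-wave replicate 1, and stroma and endothelium markers 0.0181 to 0.0218% and 0.0209 to 0.0262%. The defining T-cell genes Cd3d, Cd3e and Cd3g were read in every library.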

How the data were processed

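RNA was sequenced from leukemic spleens. Per the submitters' processing notes, reads were counted with kallisto 0.44.0 on GRCm38 and normalized with DESeq, and the deposited values are estimated gene counts divided by size factors, a signal rather than whole reads. No source used here gives the annotation, gene filter or strand setting. Between 55.1 and 63.6% of values under 8 were whole multiples of a library's step within 0.02, so reads were not recovered and no count test was run. The values of the acute libraries were not used here.

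From these values log2(value + 1) was fitted with limma 3.58.1 (R 4.3.3; eBayes with trend) over the 10 survival libraries together (7 residual degrees of freedom), for genes with a mean of at least 10. Second minus first wave was the contrast, with Benjamini-Hochberg adjustment over all tested genes and a threshold of 0.05. Fold changes of low genes are understated by the pseudocount. The script was tested on simulated data. Genes named by size were those past the threshold with waves that did not overlap and a higher-wave mean of 100 or more, up to 15 per direction and leaving out predicted genes, pseudogenes and receptor segments, then filled by the smallest unadjusted p. To these were added Acly and the 2 members of each list with the smallest p. Members and lists were chosen with earlier results of these data known. Promoters came from RefSeq (GRCm38.p6), and all 18953 symbols were matched to GENCODE M21. Alternatives were the pseudocount, filter, scaling, variance model, a replicate block, the KO libraries alone and leaving out each library. Some genes are not reported here.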

Additional observations from a re-analysis of the deposited data

How the results depend on the processing

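Depth near 7.86 M to 12.7 M estimated reads a library and 3 libraries a wave limit which changes can pass. The count of 17 genes (2 higher, 15 lower) was 5 (1 higher, 4 lower) with only the KO libraries fitted and 1 (0 higher, 1 lower) with limma's variance prior without trend, which shared no gene with the 17. The cause was not tested. Centring each library on its median gave 13 genes, 1 of them higher. With 1 library left out the count ranged from 1 to 39, with 0 to 8 higher and 1 to 31 lower. Leaving out WT replicates 1 and 2 together, chosen after seeing the data, gave 25 genes, 4 of them higher, and 15 of the 17 remained.

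Titles give both waves the numbers 1 to 3. With the replicate number as a block in the KO libraries, 0 genes passed in either direction in limma, 1155 at an unadjusted p under 0.05. Same-numbered libraries had correlations of deviations of 0.0088, 0.0115 and -0.0214, and differently numbered ones ran from -0.0657 to 0.068. The numbers were not taken as pairs, but 3 libraries a wave are too few for these values to decide it. The other pseudocounts, filters, quantile scaling and a robust prior gave 16 to 19 genes. Acly kept a negative value throughout, from -0.43 to -0.25, and never passed. Its waves did not overlap, so leaving out 1 library could not change this sign. Single genes reversed in 3 cases, none past the threshold. Without 1 library Kdm5d ranged from -0.29 to 0.028 and Siglech from -2.15 to 0.12, both positive without second-wave replicate 1, and mt-Co3 was at 0.0029 after quantile normalization.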

Other observations

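Dbp, a clock-controlled transcription factor of the PAR bZIP family, was singled out after its values were seen. It was at 20.2, 26.7 and 25.2 normalized counts in the first wave, at 0, 0 and 0.924 in the second and at 9.88 to 19.2 in WT. The second wave was at or near 0 in all 3 libraries while every first-wave library was at 20 or more. The log2 fold change of -4.32 rests on the pseudocount and missed the threshold (limma adjusted p = 0.0748). In limma without a trend of the variance on the mean, Dbp was the gene that passed, and it was alone. Of 13 clock and PAR bZIP genes, 11 were tested and 0 passed, 10 of them with a negative log2 fold change and 2 without overlap between waves, both lower, beside 7.29% of all genes. Dbp is 1 of these 2. Nr1d2, a repressor of the clock loop, was at 979, 784 and 661 in the first wave and 539, 429.9 and 618 in the second. Its WT libraries spread from 799 to 1974. Arntl, a core activator, overlapped at 388 to 438 and 246 to 397. Hours of tissue collection were not given in the labels.

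Immunoglobulin constant genes, also read after the values were seen, had 7 tested members, all with a negative log2 fold change and a median of -0.87, and 0 passed. Igkc, the kappa light chain, was at 430.3, 407 and 452 in the first wave and 212, 161 and 59.6 in the second (log2 -1.75, limma adjusted p = 0.144). Ighg2c, a class-switched heavy chain, was at 44.8, 38.4 and 77.9 in the first wave and 3.41, 8.5 and 0 in the second (log2 -3.91, limma adjusted p = 0.148). Neither overlapped between waves, whereas Ighm did, at 1154 to 1477 and 515 to 1302.

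Gains or losses along chromosomes were looked for as a shift of all tested genes of a chromosome. Over the 20 chromosomes with at least 100 tested genes, the median log2 difference from the first-wave mean in the 3 second-wave libraries lay between -0.079 and 0.061.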
